A study of Mus musculus with 24 samples.

Results

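The comparison described here asked how maternal asthma changed the transcripts of dendritic cells (DCs) in pups that had met the allergen, within a single array run. Its members were 8 of the 24 arrays of the series, chosen by maternal status, allergen exposure and array number in the sample labels. They were the 4 arrays of allergen-stimulated asthma-at-risk pups (AF88, AF89, AF90 and AF91) and the 4 of allergen-stimulated normal pups (AF84, AF85, AF86 and AF87). All were of Set 1, the first array run, whose 15 arrays also held 3 naïve normal and 4 naïve asthma-at-risk arrays. The other 9 arrays made up Set 2, a second run of stimulated pups that was amplified with NuGEN reagents (4 normal, 5 asthma-at-risk). The labels do not name the sets, which were read from the array numbers and the group sizes in the study's methods.

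The mothers of asthma-at-risk pups had been sensitized to ovalbumin (OVA) and made to inhale it as an aerosol, and normal pups came from control mothers. Every pup of the 8 arrays had itself received a single intraperitoneal injection of OVA (5 µg) in alum (1 mg), dated to day 3 of life by the labels and to day 4 by the study's methods. The naïve pups had received none. All were BALB/c pups, the spleens were taken on day 14, and no pup had inhaled the allergen. The DCs were CD11c+ cells kept on magnetic beads, of which the methods give over 95% as positive for CD11c and MHC-II. The methods call the arrays biological replicates without saying how many pups each held, and p-values here measure only how far these arrays spread.

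DCs take up antigen, carry it to lymphocytes and set the kind of response that follows. In the neonatal spleen they lie beside blood-forming tissue, so that myeloid precursors, red cell precursors and megakaryocytes are close neighbours of any sorted cell. Neutrophils store lactoferrin, lipocalin and chitinase-like proteins in granules, and their messages are made while the cells mature. A separate program, the amino acid response, is switched on through the factor ATF4 when amino acids are short or proteins fold badly, and it raises amino acid synthesis and transport.

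Transcript levels are given as the log2 of the deposited intensity of a probe set, a group of short probes for a transcript, and a difference of 1 on this scale is a doubling. The 8 arrays were alike in level, with median intensities between 276.0 and 283.1, and each correlated with the other 7 at a mean r of 0.9962 or more. The DC markers were in place. Itgax, which encodes CD11c, lay between 12.80 and 12.99 on the 8 arrays, the MHC class II gene H2-Aa between 14.08 and 14.14, H2-Ab1 between 13.59 and 13.75, and Flt3, the receptor of a DC growth factor, between 11.61 and 11.81. All 4 genes overlapped between the groups. Markers of other cells were also present, and their differences between the groups are given with each gene group. In RNA of bulk cells, fewer cells of a type and less RNA per cell cannot be told apart. AF88 lay apart from the other 7 on the first principal component, which held 29.6% of the variance (score 24.0, against -14.9 to 9.52).

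Among 22626 probe sets, 16 met both criteria for differential expression (DE), a limma p of at most 0.05 after Benjamini-Hochberg adjustment and a log2 difference of at least 0.32. All 16 were higher in asthma-at-risk DCs, which was 0.0707% of the probe sets tested, and 0 (0%) were lower. At an unadjusted p under 0.05, 804 probe sets (3.55%) were higher and 851 (3.76%) lower. The 16 stood for 14 named genes. Another of them carries several gene symbols and is not named. They fell into genes of neutrophil granules and the acute phase (Chil3, Lcn2, Ltf, Cd177, Wfdc21, Orm1), genes of the amino acid response (Trib3, Asns), an antiviral interferon target (Rsad2), and Prg3, Rhou, Ackr1, Trim15 and Nectin3. On all 16 the 4 asthma-at-risk arrays lay above the 4 normal ones. Over all 22626 probe sets 625 did so, and on 785 the asthma-at-risk arrays all lay below. The calls were made on these same arrays, so such a gap is no separate evidence for them.

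The number of calls moved with the arrays in the fit. With all 24 arrays in the fit limma called 0 probe sets (1255 at an unadjusted p under 0.05), and with the 8 compared arrays alone it called 25 higher and 2 lower. Leaving out an array of the 15 gave between 2 and 61 calls, with 61 without AF90, 35 without AF79, 34 without AF80 and 2 to 6 without any of the other 7 compared arrays (6 without AF84, 4 without AF85, 3 without AF88, AF89 or AF91, and 2 without AF86 or AF87). Chil3 and a Trib3 probe set were among the calls each time. AF90 was the lowest asthma-at-risk array for 11 of the 14 called genes.

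**Figure D1:**
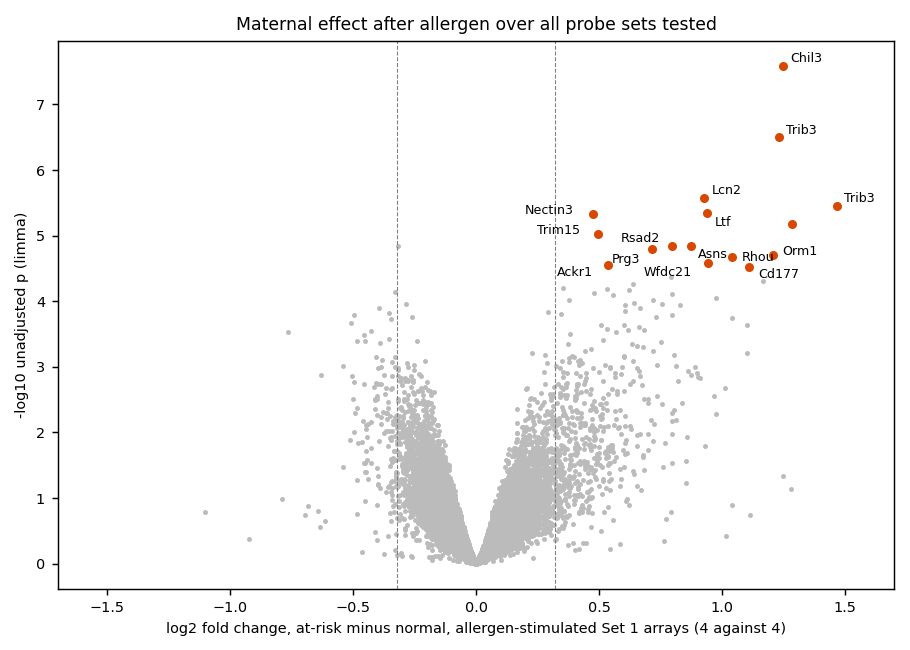
Every dot is a probe set, placed by its log2 fold change between asthma-at-risk and normal DCs after allergen (4 against 4 Set 1 arrays, x axis) and by -log10 of limma's unadjusted p (y axis), with dashed lines at a log2 fold change of 0.32 in either direction. The 16 called probe sets (orange) all lie on the right. The orange dot with no name has several gene symbols.

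Granule genes of neutrophils made up the largest group of calls. Chil3, a chitinase-like protein of neutrophil precursors and activated macrophages, was 2.37-fold higher in asthma-at-risk DCs, Lcn2, the iron-carrier-binding lipocalin of the secondary granules, 1.90-fold and Ltf, lactoferrin, 1.92-fold. Of the 16 genes of the neutrophil list 13 were measured. All 13 had a positive difference, 12 with an unadjusted p under 0.05, and 3 were called, against 0.105% of all genes called higher with 1 probe set per gene. On 8 of the 13 the groups did not overlap, against 2.92% of all genes in that direction and 3.11% in the other. The list's median log2 fold change was 0.84, against -0.01 over all 12393 genes.

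Chil3 had a log2 signal of 9.98, 10.18, 9.90 and 10.10 on the normal arrays and 11.36, 11.46, 11.08 and 11.24 on the asthma-at-risk arrays. The 4 arrays of each group lay close together with a wide gap between the groups. The difference of 1.247 (SE 0.12, n = 4 against 4) had a limma adjusted p of 0.00058. The call held under every alternative but the fit of all 24 arrays, where the adjusted p was 0.117.

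Lcn2 read 11.84, 11.91, 11.44 and 11.79 in normal and 12.85, 12.80, 12.42 and 12.62 in asthma-at-risk DCs. Ltf read 11.67, 11.67, 11.20 and 11.46 in normal and 12.60, 12.56, 12.21 and 12.39 in asthma-at-risk DCs. In both genes the lowest array of each group was the same pair, AF86 among the normal and AF90 among the asthma-at-risk arrays. The differences were 0.93 for Lcn2 (SE 0.13) and 0.94 for Ltf (SE 0.13), both with a limma adjusted p of 0.0173. AF90 was the lowest asthma-at-risk array for 12 of the 13 neutrophil markers.

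Cd177, a surface protein of maturing neutrophils, rose by 1.11 (SE 0.19, limma adjusted p = 0.0400). It read 9.14, 8.92, 8.58 and 8.65 on the normal arrays and 10.01, 10.07, 9.66 and 9.98 on the asthma-at-risk arrays. Wfdc21, a secreted protein of the whey acidic protein family, rose by 0.94 (SE 0.16, adjusted p = 0.0396), from 8.60 to 8.84 in normal to 9.35 to 9.91 in asthma-at-risk DCs. Orm1, an acute-phase plasma glycoprotein, rose by 1.21 (SE 0.20, adjusted p = 0.0341). Its normal arrays lay between 6.78 and 7.34 and its asthma-at-risk arrays between 8.01 and 8.37. Prg3, a granule protein of eosinophils, rose by 0.71 (SE 0.11, adjusted p = 0.0296), from 6.97 to 7.33 in normal to 7.70 to 8.05 in asthma-at-risk DCs.

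Other granule genes had differences of the same sign that limma did not call. Ngp, a neutrophil granule protein, differed by 0.53 (SE 0.10, adjusted p = 0.0659), and Camp, the precursor of the antimicrobial peptide cathelicidin, by 0.80 (SE 0.16, adjusted p = 0.0861). Their groups did not overlap. Among genes of the primary granules, which are made earlier in maturation, Prtn3 differed by 1.10 (SE 0.23, adjusted p = 0.104), Mpo, the myeloperoxidase, by 0.97 (SE 0.27, adjusted p = 0.286) and Elane, the elastase, by 0.89 (SE 0.22, adjusted p = 0.209). S100a8 and S100a9, which encode the abundant calprotectin subunits, differed by 0.28 (adjusted p = 0.193) and 0.12 (adjusted p = 0.568). The collagenase gene Mmp8 differed by 0.84 (adjusted p = 0.306), the gelatinase gene Mmp9 by 0.40 (adjusted p = 0.594) and Cxcr2, the chemokine receptor of mature neutrophils, by 0.16 (adjusted p = 0.967).

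The naïve arrays (3 normal and 4 asthma-at-risk) placed these differences. Among them AF79, a naïve normal array, lay apart from the other Set 1 arrays on their second principal component. That component held 16.8% of the variance (score -45.25, against -7.01 to 14.51). On 9 of the 13 neutrophil markers all 4 stimulated normal arrays lay below all 7 naïve arrays, against 5.46% of all genes, while the stimulated asthma-at-risk arrays lay below all naïve arrays on 0 of 13. Chil3 read 11.73 to 11.83 in naïve normal and 11.30 to 11.91 in naïve asthma-at-risk DCs, a range that the stimulated asthma-at-risk arrays (11.08 to 11.46) overlapped and the stimulated normal arrays did not reach. Lcn2 read 12.81 to 12.95 and 12.62 to 13.11 in the same naïve groups, and Cd177 10.39 to 10.60 and 9.75 to 10.73. For these genes the stimulated normal arrays overlapped no other group of Set 1. The stimulated asthma-at-risk arrays of Chil3 and Cd177 (9.66 to 10.07 for Cd177) overlapped the naïve asthma-at-risk range but lay below all naïve normal arrays. The primary granule genes Mpo, Prtn3 and Elane differed from Chil3, Lcn2 and Cd177. Mpo read 6.87 to 8.22 over the 7 naïve arrays and 9.23 or more on the stimulated arrays of Set 1. Prtn3 and Elane read 7.38 to 8.83 and 6.87 to 7.88 in stimulated asthma-at-risk DCs, above all naïve arrays. Their stimulated normal arrays overlapped the naïve range. These were the 3 of 13 markers above all naïve arrays in stimulated asthma-at-risk DCs, against 6.26% of all genes. The mean signal of the 13 markers was 10.09 to 10.37 on stimulated normal and 10.72 to 11.16 on stimulated asthma-at-risk arrays, a gap of 0.71 that was 0.66 without AF88. Whether these transcripts came from DCs or from neutrophils and their precursors among the CD11c+ cells was not tested.

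**Figure D2:**
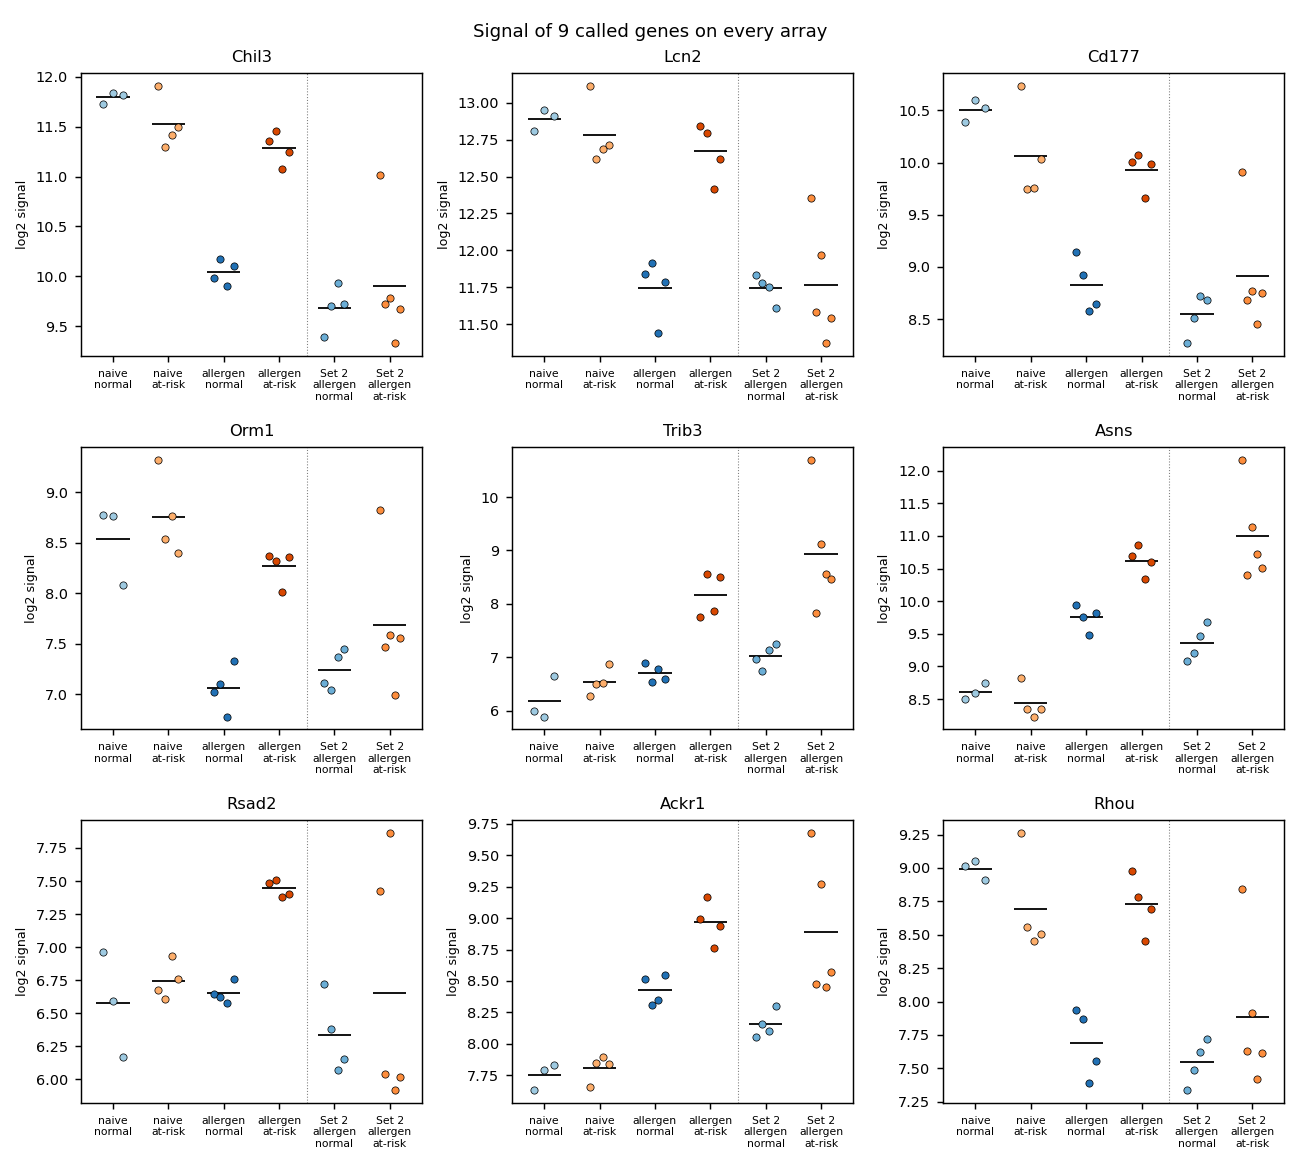
Each panel gives the log2 signal of a called gene (y axis) on all 24 arrays, by group (x axis), with a dot for an array and a line for the group mean; the dotted line separates Set 1 from Set 2. In Chil3, Lcn2, Cd177, Orm1 and Rhou the stimulated normal group of Set 1 lies below the naïve groups. In Trib3, Asns, Rsad2 and Ackr1 the stimulated asthma-at-risk group of Set 1 lies above the other groups of Set 1.

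The highest fold change belonged to Trib3, a pseudokinase induced by ATF4 that curbs the same response. Asns, asparagine synthetase, makes asparagine and is a classical target of amino acid shortage. Both rose in asthma-at-risk DCs, and they were the only calls among 40 measured members of the amino acid stress list, where 0.105% of all genes were called. The list's median log2 fold change was 0.02, 27 of 40 differences were positive, 7 had an unadjusted p under 0.05 and all 7 were higher.

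Trib3 read 6.90, 6.53, 6.79 and 6.59 on the normal arrays and 7.75, 8.57, 7.86 and 8.50 on the asthma-at-risk arrays. AF89 and AF91 were the higher pair and AF88 and AF90 the lower, and all lay above the normal arrays. The difference of 1.47 (SE 0.20, n = 4 against 4) had a limma adjusted p of 0.0173. This probe set carries the x_at suffix, which marks probes that may also match other transcripts. The other Trib3 probe set, without that suffix, differed by 1.23 (SE 0.14, adjusted p = 0.0036).

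Asns read 9.95, 9.75, 9.49 and 9.82 in normal and 10.70, 10.85, 10.34 and 10.61 in asthma-at-risk DCs. The lowest arrays were again AF86 and AF90. The difference was 0.87 (SE 0.14, limma adjusted p = 0.0296), and the other Asns probe set gave 0.87 with a wider error (SE 0.22, adjusted p = 0.228). In naïve DCs Asns lay lower, between 8.23 and 8.83 over both groups, so it stood above the naïve level in both stimulated groups. Trib3 lay between 5.89 and 6.88 in naïve DCs, a range that the stimulated normal arrays overlapped.

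Atf5, a relative of ATF4, differed by 0.64 (SE 0.12, adjusted p = 0.0749) with groups apart (8.28 to 8.63 and 8.97 to 9.21). Pck2, the mitochondrial form of a gluconeogenic enzyme, differed by 0.22 (adjusted p = 0.294), Ddit3, which encodes the stress factor CHOP, by 0.29 (adjusted p = 0.568) and Chac1, a glutathione-degrading enzyme, by 0.38 (adjusted p = 0.665). The 3 probe sets of Atf4 itself disagreed. The brightest gave -0.03 (adjusted p = 0.967) and a dimmer x_at probe set gave -0.33 (SE 0.06, adjusted p = 0.0668). ER chaperones, the other branch of the response to misfolded protein, had 0 of 19 genes called and a median of -0.05. Xbp1, the factor that drives them, had a difference of -0.19 (adjusted p = 0.402).

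Promoter windows from RefSeq (GRCm38.p6, 250 bases before to 50 after the annotated start) were found for 12 of the 14 called genes. The core of the C/EBP-ATF response element, through which ATF4 binds, was searched as TGATGNAA on both strands. It occurred in 3 of the 12 (Trib3, Asns and Trim15), in 13 of 35 genes of the amino acid stress list with a window, and in 4.51% of all 27025 gene symbols with one. The cAMP response element TGACGTCA occurred in 0 of the 12 called genes (2.03% of symbols) and the ER stress response element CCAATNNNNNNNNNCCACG in 0 of them (0.137%). The windows of both called genes of the amino acid stress list are shown, with the match in capitals. It begins 14 bases after the annotated start in Trib3 (minus strand of chr2:152344011-152344310), where it lies on the opposite strand, and 23 bases before the start in Asns (minus strand of chr6:7693160-7693459). A match shows only that these letters are present.
Trib3: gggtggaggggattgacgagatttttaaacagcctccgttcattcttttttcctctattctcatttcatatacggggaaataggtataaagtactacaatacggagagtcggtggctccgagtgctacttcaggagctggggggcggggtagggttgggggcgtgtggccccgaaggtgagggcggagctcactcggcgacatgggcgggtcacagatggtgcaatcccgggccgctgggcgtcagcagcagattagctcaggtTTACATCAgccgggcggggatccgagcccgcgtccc
Asns: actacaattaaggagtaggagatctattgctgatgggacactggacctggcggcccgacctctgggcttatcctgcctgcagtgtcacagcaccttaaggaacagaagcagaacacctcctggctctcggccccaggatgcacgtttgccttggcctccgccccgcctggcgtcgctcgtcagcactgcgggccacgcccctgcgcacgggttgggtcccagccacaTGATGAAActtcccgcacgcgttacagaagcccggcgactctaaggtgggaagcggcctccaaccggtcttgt

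Rsad2, which encodes the antiviral protein viperin and is switched on by interferon, rose in asthma-at-risk DCs by 0.79 (SE 0.13, limma adjusted p = 0.0296). It read 6.65, 6.62, 6.58 and 6.76 on normal and 7.49, 7.51, 7.38 and 7.40 on asthma-at-risk arrays. The groups were tight and apart. Its brighter probe sets gave 0.72 (SE 0.14, adjusted p = 0.0714) and, for the brightest, 0.37 (SE 0.09, adjusted p = 0.224), so the call rests on the dimmest of 3 probe sets. Of the 18 measured interferon response genes 14 had a positive difference, 6 with an unadjusted p under 0.05. With each gene represented by its brightest probe set, 0 of 18 were called. The list's median was 0.12, and 4 of 18 genes had groups apart and higher in asthma-at-risk DCs, against 2.92% of all genes. Ifit1 and Ifit3, which bind viral RNA or assist in it, differed by 0.54 (adjusted p = 0.395) and 0.41 (adjusted p = 0.294), and Oas2, a sensor of double-stranded RNA, by 0.44 (adjusted p = 0.510).

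As on most of the neutrophil list, stimulated normal DCs were the lower group against the naïve arrays on most interferon response genes. On 11 of the 18 genes all stimulated normal arrays lay below all naïve arrays, against 5.46% of all genes, and on 4 of 18 the stimulated asthma-at-risk arrays did, against 5.56%. Ifit3 read 9.35 to 9.79 over the naïve arrays, 8.84 to 8.998 in stimulated normal and 9.08 to 9.50 in stimulated asthma-at-risk DCs. The called Rsad2 probe set ran otherwise. It read 6.17 to 6.96 over the naïve arrays, a range that held its stimulated normal arrays (6.58 to 6.76). Its stimulated asthma-at-risk arrays (7.38 to 7.51) lay above that range. The interferon-stimulated response element, searched on both strands after the values were seen as a pair of GAAA with 2 bases between them, occurred in the promoter window of Rsad2 alone among the 12 called genes, in 9 of 18 interferon response genes with a window and in 3.99% of gene symbols. In Rsad2 (minus strand of chr12:26456403-26456702) it begins 120 bases before the start, on the opposite strand, as the capitals show.
Rsad2: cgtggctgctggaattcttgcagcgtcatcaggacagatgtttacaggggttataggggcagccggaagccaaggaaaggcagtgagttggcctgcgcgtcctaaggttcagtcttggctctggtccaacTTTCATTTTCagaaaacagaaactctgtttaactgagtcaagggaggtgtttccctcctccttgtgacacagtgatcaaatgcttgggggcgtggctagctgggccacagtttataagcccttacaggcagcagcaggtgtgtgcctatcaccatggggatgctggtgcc

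Rhou, a small GTPase that shapes the actin skeleton, rose by 1.04 (SE 0.17, limma adjusted p = 0.0346), from 7.39 to 7.94 in normal to 8.46 to 8.98 in asthma-at-risk DCs, and its dimmer probe set gave 0.43 (adjusted p = 0.204). As for Chil3, Lcn2 and Cd177, its stimulated asthma-at-risk arrays overlapped the range of the naïve arrays (8.45 to 9.26), and its stimulated normal arrays lay below it. Ackr1, a chemokine-binding receptor of red cell precursors and venules, rose by 0.54 (SE 0.09, adjusted p = 0.0396). It read 8.51, 8.31, 8.35 and 8.55 in normal and 8.99, 9.17, 8.76 and 8.94 in asthma-at-risk DCs, above the 7.63 to 7.90 of the naïve arrays. Trim15, of the tripartite motif family, and Nectin3, a cell adhesion protein, rose by 0.50 (SE 0.08, adjusted p = 0.0264) and 0.47 (SE 0.07, adjusted p = 0.0173). Both were dim, between 4.27 and 5.05 on the 8 arrays, where the lower quartile of an array was 4.997 to 5.041. Neither was called once 32 was added to every intensity, and the 4 other Nectin3 probe sets lay between -0.12 and 0.04. Just outside the thresholds, C6, a complement component, differed by 0.79 (adjusted p = 0.0535) and Prom1, a membrane protein of stem cells, by 1.17 (adjusted p = 0.0591).

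Markers of red cell precursors had a positive difference on 18 of 19 measured genes, with a median log2 fold change of 0.41 and 14 unadjusted p under 0.05. By limma 0 of the 19 were called. Rhag and Rhd, which encode blood group membrane proteins, differed by 0.64 (SE 0.11, adjusted p = 0.0628) and 0.60 (SE 0.12, adjusted p = 0.0840), and Epb42, of the red cell skeleton, by 0.68 (SE 0.14, adjusted p = 0.114). Rhag read 8.21, 8.17, 8.03 and 8.16 in normal and 8.85, 8.88, 8.52 and 8.87 in asthma-at-risk DCs, so that AF90 lay nearest to the normal arrays. AF90 was the lowest asthma-at-risk array on 17 of the 19. Alas2, the first enzyme of heme synthesis in red cells, differed by 0.40 (adjusted p = 0.427). Without AF90 Rhag, Rhd and Epb42 were called.

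These markers were far above the naïve arrays in both stimulated groups. The mean signal of the list was 8.37 to 8.68 on the naïve, 9.48 to 9.76 on the stimulated normal and 9.78 to 10.21 on the stimulated asthma-at-risk arrays, and 18 of 19 genes stood above all naïve arrays in either stimulated group, against 6.54% of all genes in normal and 6.26% in asthma-at-risk DCs. Platelet and megakaryocyte markers did so still more, with a mean of 6.37 to 6.58 in naïve, 8.90 to 9.33 in stimulated normal and 9.02 to 9.89 in stimulated asthma-at-risk DCs. Between the stimulated groups the platelet list differed by 0.29 in mean signal, and by 0.12 without AF88, which was the highest asthma-at-risk array on all 16 genes. Nrgn, Slc6a4, the serotonin transporter, and Alox12, a platelet lipoxygenase, differed by 0.48 (adjusted p = 0.457), 0.41 (adjusted p = 0.534) and 0.28 (adjusted p = 0.881). Without AF88 Slc6a4 differed by 0.26 and Alox12 by 0.08, and without AF85 or AF91 Alox12 differed by 0.13 or 0.46. AF88 read 10.86 for Alox12, while AF91 at 9.73 lay within the normal range of 9.56 to 10.21.

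Endothelial markers were also mostly highest on AF88, and part of their difference stayed without it. The list had 17 of 20 positive differences, 11 with an unadjusted p under 0.05, a median of 0.43 and 0 called genes. Cldn5, a tight junction protein, read 7.19, 6.99, 6.75 and 6.74 in normal and 8.88, 7.95, 7.43 and 7.32 in asthma-at-risk DCs (difference 0.98, SE 0.30, limma adjusted p = 0.358). Sox18, a vascular transcription factor, differed by 0.73 (adjusted p = 0.209), Ptprb, a vascular phosphatase, by 0.80 (adjusted p = 0.339), and Cdh5, the endothelial cadherin, by 0.32 (adjusted p = 0.257). Without AF88 Cldn5 differed by 0.65 and Ptprb by 0.52. AF88 was highest on 17 of the 20 and the mean signal of AF91 (6.95) lay within the normal range (6.83 to 7.08). The mean signal of the list differed by 0.42 and without AF88 by 0.25. Stromal markers, with 13 of 18 positive and a median of 0.17, had a difference in mean signal of 0.14 that was -0.07 without AF88. What part these cells had in the 16 calls was not tested. Without AF88 the calls of Chil3 and of both Trib3 probe sets remained and the other 13 were lost, while Lcn2 differed by 0.87 and Ltf by 0.89. Leaving out AF86 or AF87 kept 2 of the 16 calls, and leaving out AF89 or AF91 kept 3, as did leaving out AF88.

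**Figure D3:**
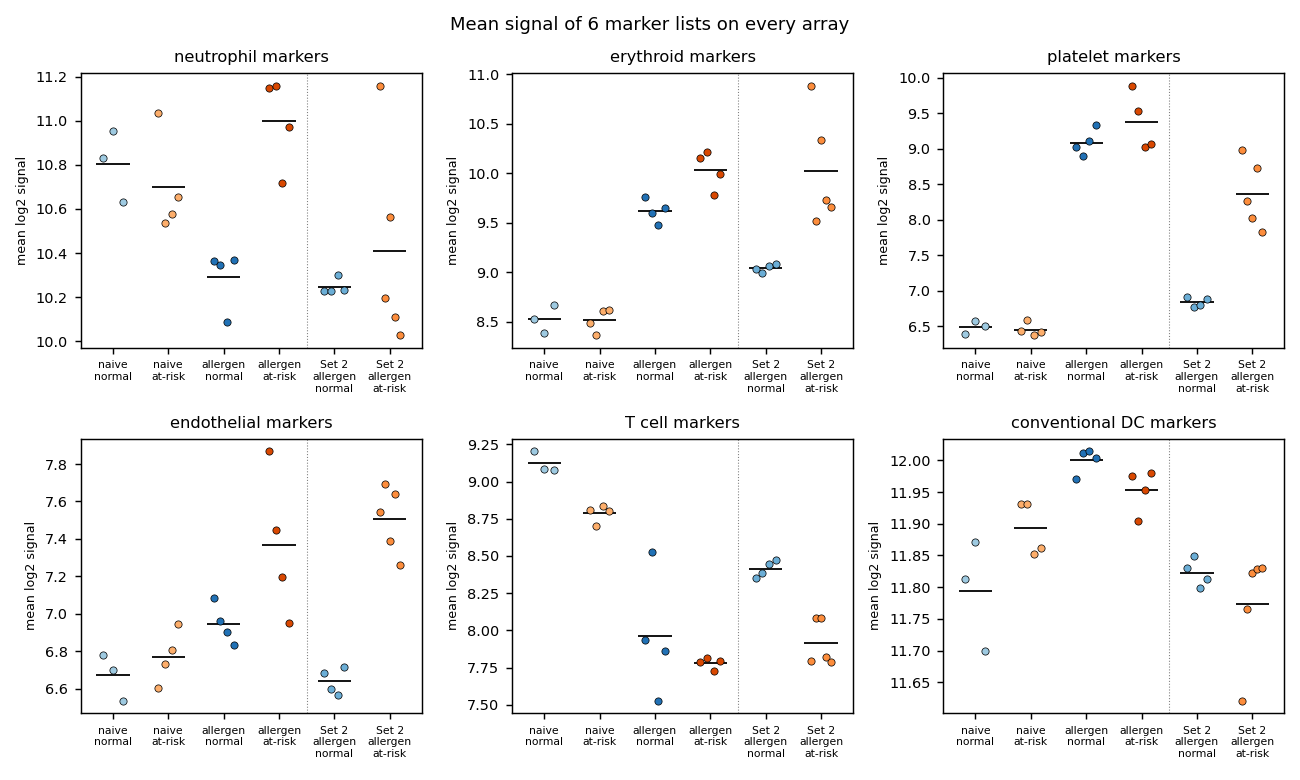
Each panel gives the mean log2 signal of a marker list (y axis) on every array, by group (x axis), with a dot for an array and a line for the group mean. Neutrophil markers separate the stimulated groups of Set 1, erythroid and platelet markers separate stimulated from naïve arrays, and AF88 is the highest dot of the stimulated asthma-at-risk group for platelet and endothelial markers.

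Markers of conventional DCs had 5 of 17 positive and 12 negative differences, a median of -0.03 and 0 called. On 4 of 17 the groups were apart and lower in asthma-at-risk DCs, against 3.11% of all genes. Tlr3, the sensor of double-stranded RNA in cross-presenting DCs, Naaa and Ly75, which encodes the uptake receptor DEC-205, were lower on every asthma-at-risk array than on every normal one, without a call. Tlr3 read 13.01 to 13.06 in normal and 12.81 to 12.96 in asthma-at-risk DCs (difference -0.15, SE 0.06, adjusted p = 0.557), and Naaa differed by -0.18 (SE 0.08, adjusted p = 0.650). A dimmer Tlr3 probe set was lower by at least 0.32 in asthma-at-risk DCs, also without a call. Itgae, the CD103 integrin of the same subset, differed by -0.28 (adjusted p = 0.626). Among 19 activation genes 14 had a positive difference, with a median of 0.06 and 0 called. Il12a and Il12b, the subunits of IL-12, differed by 0.34 (SE 0.11, adjusted p = 0.387) and 0.25 (SE 0.10, adjusted p = 0.556), and Fscn1, the actin bundler of mature DCs, by 0.19 (adjusted p = 0.620). MHC class II genes (9) and class I genes (11) had medians of -0.01 and -0.02 with 0 called.

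Of 27 immediate early genes, which respond to stimulation within minutes, 21 lay below all naïve arrays on every stimulated normal array (5.46% of all genes) and 25 on every stimulated asthma-at-risk array (5.56%). Between the stimulated groups they had 23 of 27 negative differences, a median of -0.08 and 0 called. Atf3, a stress-induced repressor, read 11.18, 11.19, 10.94 and 10.78 in normal and 10.26, 10.78, 10.69 and 10.75 in asthma-at-risk DCs (difference -0.40, SE 0.11, adjusted p = 0.294), with AF88 the lowest. Cxcl2, a chemokine that draws neutrophils, read 10.54, 10.34, 10.21 and 10.06 in normal and 9.47, 9.79, 9.86 and 10.05 in asthma-at-risk DCs, groups that only just parted (difference -0.49, SE 0.15, adjusted p = 0.349). NF-kB targets had a median of -0.02 over 21 genes with 0 called. Il6, dim at 5.11 to 5.64 on the 8 arrays, differed by -0.08 (adjusted p = 0.972), Socs3, the feedback inhibitor of its receptor, by -0.17 (adjusted p = 0.830), Jun by -0.15 (adjusted p = 0.832), Cxcr4 by -0.04 (adjusted p = 0.980), Cxcr5 by 0.06 (adjusted p = 0.982), Flt1, a VEGF receptor, by -0.18 (adjusted p = 0.691) and the guidance cue Slit2 by -0.30 (adjusted p = 0.406).

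Glucocorticoid targets had 9 of 13 positive differences and a median of 0.12, with 0 called. The median was 0.003 without AF85 and 0.20 without AF89. Fkbp5, a chaperone of the receptor, read 9.64, 9.60, 9.83 and 9.83 in normal and 9.80, 10.41, 10.80 and 10.18 in asthma-at-risk DCs (difference 0.57, SE 0.16, adjusted p = 0.267). AF88 alone lay within the normal range. In the naïve pups Fkbp5 differed by 1.62 (9.69 to 10.09 against 11.46 to 11.59). Pdk4, a brake on glucose oxidation, differed by 0.60 (adjusted p = 0.517), and by 0.31 without AF88. Mt2, a metallothionein, differed by 0.57 (adjusted p = 0.368), and by 0.37 without AF89. Klf9 differed by 0.44 (adjusted p = 0.387).

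Lymphocyte markers gave 0 calls. T cell markers had 14 of 15 negative differences and a median of -0.17, which was 0.007 without AF85. That array was high among the normal arrays (mean 8.52, against 7.53 to 7.93 on the other 3). The costimulatory receptor Cd28 differed by -0.49 (SE 0.13, adjusted p = 0.243). B cell markers had 7 of 12 positive differences and a median of 0.06, which was 0.009 without AF88. Vpreb3, of the early B lineage, differed by 0.57 (SE 0.14, adjusted p = 0.223) and Cd72, a B cell coreceptor, by 0.28 (SE 0.07, adjusted p = 0.223), with groups apart. The antibody gene Igha was split within the asthma-at-risk group, with 6.87 and 7.69 on AF88 and AF89 and 9.59 and 9.98 on AF90 and AF91, against 7.10 to 7.51 in normal DCs. Macrophage markers were positive on 16 of 16 with a median of 0.12, and Hmox1, the heme-degrading enzyme, differed by 0.35 (SE 0.09, adjusted p = 0.257).

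The remaining lists, of plasmacytoid DC, NK, plasma, mast and pancreatic acinar cells, allergy cytokines, IL-6 and Jak-Stat signaling, heat shock, hypoxia and glycolysis, cholesterol synthesis, cell cycle, DNA methylation and retinoids, held 0 calls, and their medians lay between -0.10 and 0.04. Among them Gadd45a, a stress and DNA repair gene, differed by 0.43 (adjusted p = 0.387) and Aldh1a1, which makes retinoic acid, by 0.64 (adjusted p = 0.242).

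**Figure D4:**
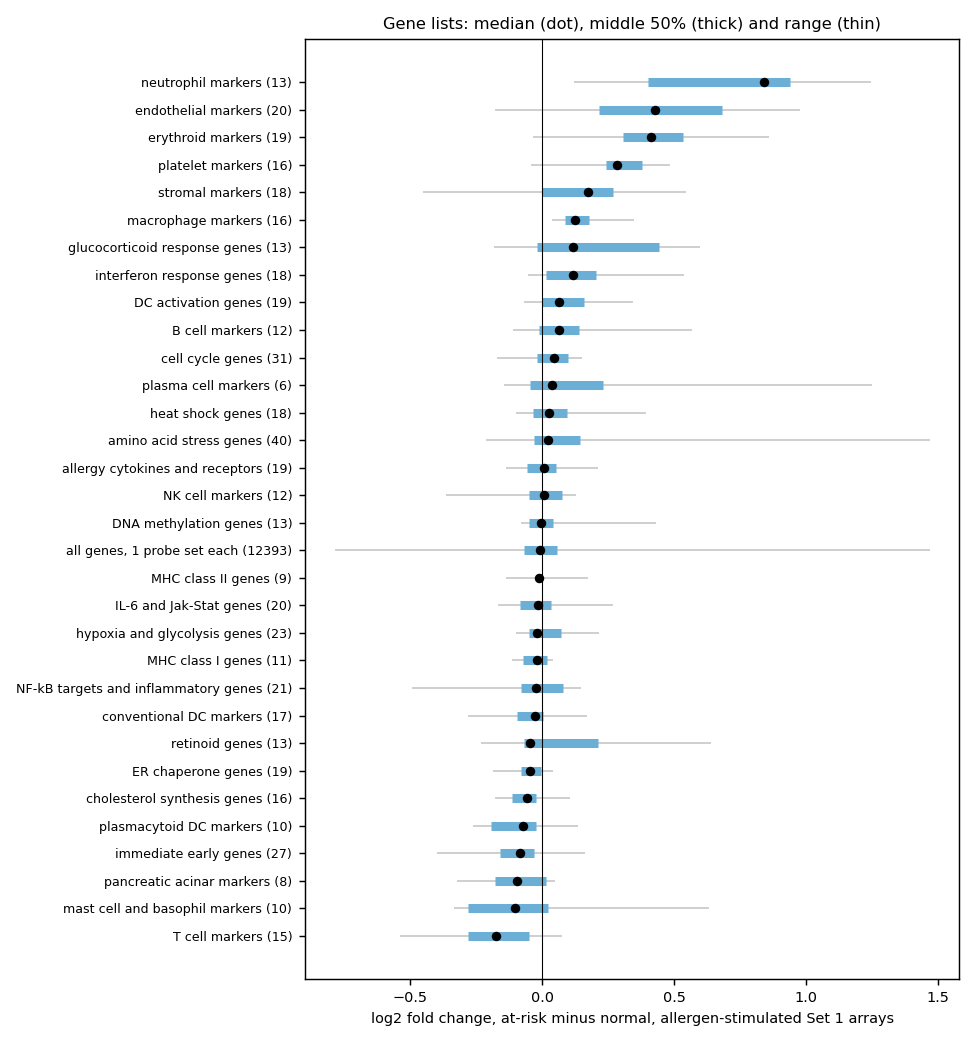
Each line is a gene list with its number of measured genes, or all genes with 1 probe set each, and the x axis is the log2 fold change between asthma-at-risk and normal DCs after allergen in Set 1. The dot is the median, the thick bar the middle of the members and the thin line their range. The neutrophil list has the highest median (0.84) and the T cell list the lowest (-0.17, and 0.007 without AF85).

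No probe set met both thresholds for a lower level. Surf4, a cargo receptor of the secretory pathway, had the smallest p among the negative differences. It read 11.46, 11.41, 11.56 and 11.42 in normal and 11.12, 11.15, 11.19 and 11.13 in asthma-at-risk DCs. The groups were apart, and the difference of -0.32 (SE 0.05, limma adjusted p = 0.0296) missed the fold threshold at 1.24-fold lower. Its other 4 probe sets gave -0.28 to 0.02. Pigh, of the GPI anchor pathway, differed by -0.36 (adjusted p = 0.0854), Cd209d, a DC-SIGN relative that binds sugars, by -0.34 (adjusted p = 0.0895), Idi1, of cholesterol synthesis, by -0.43 (adjusted p = 0.115) and Cox7c, a subunit of cytochrome oxidase, by -0.51 (adjusted p = 0.103). The brighter probe sets of Idi1 and Cox7c gave -0.13 and -0.22. C1ql3, of the C1q family, had the largest of these differences with -0.76 (SE 0.16, adjusted p = 0.116). For Atf4, Actl6a, Tma16 and Smim10l1 a dimmer probe set gave -0.33 to -0.45, while the brightest lay between -0.03 and 0.01.

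The maternal effect after allergen was set against that in naïve pups. The difference between them was called on 11 probe sets, all higher (0.0486% of those tested), by limma over the 15 Set 1 arrays. The naïve and stimulated effects share no arrays, but the difference holds the same 8 stimulated arrays that gave the 16 calls. The calls after allergen and those of the difference are therefore not independent. Chil3 was the only gene called both after allergen and for the difference. Its effect of 1.247 after allergen stood against -0.27 in naïve pups, a difference of 1.51 (SE 0.17, adjusted p = 0.00682, and 0.0969 with all 24 arrays in the fit). For Ltf the difference was 1.16 (adjusted p = 0.0511), for Cd177 1.55 (adjusted p = 0.0540) and for Lcn2 1.03 (adjusted p = 0.0555). Of the 16 called probe sets 10 had a negative effect in naïve pups. Over all probe sets the median naïve effect was 0.002, so their signs were split about evenly.

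The other named genes differed in which pair of groups was apart. Il6 read 6.68 to 6.80 in naïve normal and 5.47 to 5.76 in naïve asthma-at-risk DCs, and was at 5.11 to 5.64 on the stimulated arrays of Set 1 (difference of effects 1.10, adjusted p = 0.0402). Phlda1, an immediate early gene, had an effect of -0.89 in naïve and 0.00 in stimulated pups (adjusted p = 0.0246), Mfge8, a bridge for the uptake of dying cells, -0.81 and 0.00 (adjusted p = 0.0246), and Socs2, a cytokine signaling inhibitor, -0.52 and 0.09 (adjusted p = 0.0311). Dnajb4, a heat shock cochaperone, had -0.66 in naïve and 0.41 in stimulated pups (adjusted p = 0.0246), with both pairs of groups apart. Prom1 had -0.71 and 1.17 (adjusted p = 0.0430). Its naïve groups overlapped and its stimulated groups did not. Leaving out an array gave 1 to 30 calls for the difference (1 without AF82, AF83, AF86, AF87 or AF91, and 30 without AF90). Without AF79 there were 10, of which 6 were among the 11 calls of the full fit.

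Set 2 measured the same contrast in other arrays and on amplified RNA. All 16 probe sets called in Set 1 had a positive effect there, 7 with an unadjusted p under 0.05. Over all probe sets the median Set 2 effect was -0.004. The share of all probe sets with such a p in Set 2 was not counted, so whether 7 of 16 exceeds it is not known. Genes not called in Set 1, such as Cxcl2 and Alox12, also had such a p in Set 2. Without AF123, an asthma-at-risk array of Set 2 left out after the data were seen, 13 of 16 were positive and 5 had an unadjusted p under 0.05. Chil3, Lcn2 and the probe set with several symbols were then below 0. The difference between the sets was called on 404 probe sets (1.79%), of which 255 were higher in Set 1 and 149 lower, and on 0 of these 16. For Trib3 the effect was 1.47 in Set 1 and 1.91 in Set 2, for Asns 0.87 and 1.63, for Ackr1 0.54 and 0.74, and for Trim15 0.50 and 1.00. Without AF123 the Set 2 effects were 1.47 for Trib3, 1.34 for Asns, 0.54 for Ackr1 and 0.63 for Trim15. Those of Chil3, Lcn2 and Ltf were 0.22, 0.02 and 0.44, and -0.06, -0.13 and 0.22 without AF123. In Chil3 the 4 normal arrays of Set 2 read 9.39 to 9.93 and 4 of its 5 asthma-at-risk arrays 9.33 to 9.78, while AF123 read 11.015. The difference between the sets had an adjusted p of 0.147 for Chil3, 0.0614 for Lcn2 and 0.383 for Ltf.

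Among the primary granule genes the Set 2 effect was 1.18 for Mpo, 1.06 for Elane and 0.70 for Prtn3, and 0.79, 0.62 and 0.40 without AF123. Their differences between the sets were not called (adjusted p = 0.863, 0.901 and 0.721). Mmp9 and Cxcr2 of the neutrophil list did differ. Mmp9 had an effect of 0.40 in Set 1 and -0.67 in Set 2 (difference 1.07, limma adjusted p = 0.00934) and Cxcr2 0.16 and -0.77 (difference 0.93, adjusted p = 0.0211). Cxcl2 had -0.49 and -2.49 (adjusted p = 0.00163). Platelet genes ran the other way, with 0.41 and 2.39 for Slc6a4 (adjusted p = 0.0255) and 0.28 and 2.63 for Alox12 (adjusted p = 0.00886). In Set 2 the normal arrays were low in platelet markers (mean 6.77 to 6.92) and the asthma-at-risk arrays high (7.83 to 8.99), while in Set 1 both stimulated groups were high. The run and the amplification cannot be told apart in this comparison.

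**Figure D5:**
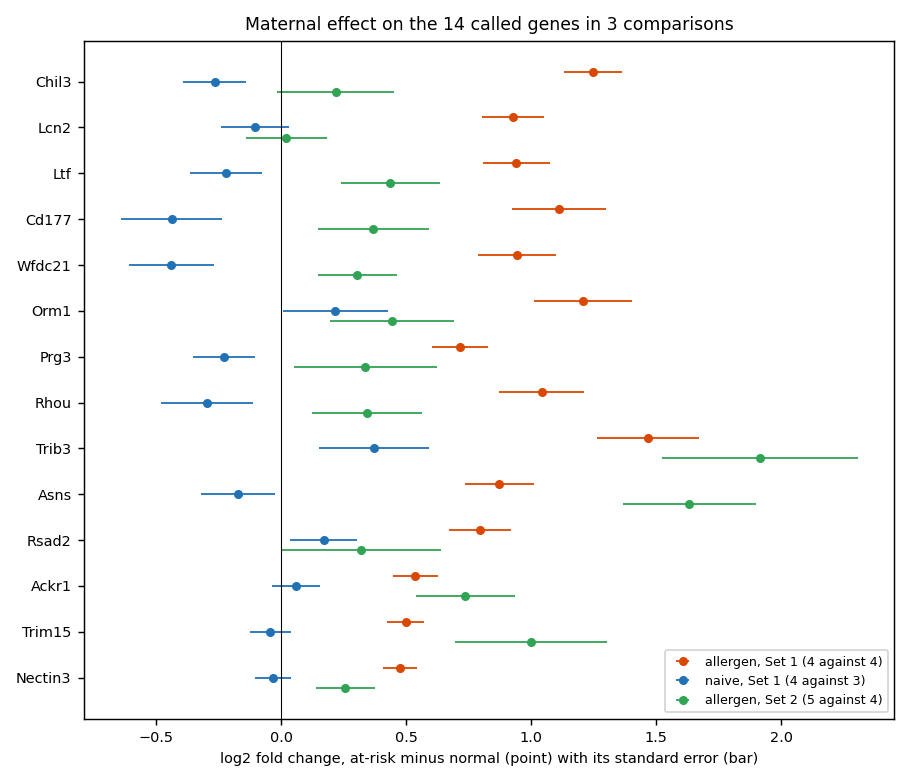
The log2 fold change between asthma-at-risk and normal DCs (x axis) is given for each of the 14 called genes (y axis) in stimulated pups of Set 1, in naïve pups of Set 1 and in stimulated pups of Set 2, as a dot with its standard error. The genes were chosen on the Set 1 stimulated values. With all 5 asthma-at-risk arrays of Set 2, Trib3, Asns and Trim15 lie at least as high there as in Set 1, whereas Chil3 and Lcn2 lie near 0 in Set 2.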

How the data were processed

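RNA of CD11c+ splenic DCs was hybridised to Affymetrix Mouse430A 2.0 arrays. The authors made the values with RMA (version not given in the sources used here), preprocessing the sets separately and leaving out 1 array of each set, and deposited linear intensity values for probe sets. Their methods name a RefSeq-based probe definition, whereas the table held Affymetrix probe sets. Log2 was taken with no pseudocount. The set of an array came from its number in the labels. Of 22626 probe sets (64 controls left out), 20380 had 1 symbol in the platform annotation, 691 several and 1555 none, and only the first were named. A gene was represented by its probe set of highest mean, and a called or lower gene by the probe set that was called or had the smallest p.

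Contrasts came from limma (version 3.58.1, R version 4.3.3), with 4 group means over the 15 Set 1 arrays, or over the 17 stimulated arrays for the difference between sets. The genes named were up to 15 called genes per direction, with 10 filled up by smallest p, up to 4 of smallest p per list, up to 5 per difference and those the study names. Camp, S100a8, S100a9, Prtn3, Elane, Mpo, Mmp8, Cxcr2, Prom1, C6, Surf4, Ddit3, Chac1 and Alas2 were added after their values were seen. The members and the 31 lists (521 of 582 genes measured) were chosen with earlier results of these data known. The fit was tested on simulated data. Figures used Python 3.11.15 and matplotlib 3.10.9. The number of arrays limits the precision. Alternatives changed the arrays in the fit, normalization, pseudocount, filter, thresholds, variance prior, weights and probe set rule, and left out each array. Some genes that the study names are not reported here.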

Additional observations from a re-analysis of the deposited data

Results flagged for a closer look

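Among 236 gene or list groups of 4 arrays, 10 held an array far from the other 3 by Dixon's ratio, the gap to the nearest array divided by the group's range. Chance gives about 1 in 20 groups. In asthma-at-risk DCs the ratio was 0.851 for Orm1 (AF90 low), 0.911 for Rhag (AF90 low), 0.905 for Pigh (AF90 high), 0.834 for Atf3 (AF88 low), 0.921 for Jun (AF88 low), 0.833 for Atf4 (AF89 low) and 0.852 for the mean signal of glucocorticoid targets (AF88 low). In normal DCs it was 0.881 for Klf9 (AF85 low), 0.898 for Phlda1 (AF84 high) and 0.920 for the mean signal of neutrophil markers (AF86 low).

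The maternal effect differed between stimulated and naïve pups, by limma's test of that difference on the log2 scale, for Chil3 (1.51), Prom1 (1.88), Il6 (1.10), Dnajb4 (1.08), Phlda1 (0.894), Mfge8 (0.805) and Socs2 (0.619). It was higher in Set 1 than in Set 2 for Igha (3.56), Cxcl2 (2.00), C6 (1.55), Mmp9 (1.07), Cxcr2 (0.932), Hmox1 (0.767), Slit2 (0.498) and Socs2 (0.444). It was lower in Set 1 for Alox12 (-2.36), Slc6a4 (-1.98), Itgae (-0.800), Cxcr5 (-0.733), Flt1 (-0.627) and Cox7c (-0.508).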

How the results depend on the processing

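The 16 calls became 27 with the 8 compared arrays alone, 0 with all 24 arrays, 2 when limma's treat tested the fold itself, 34 with a trended and robust prior, 71 with array weights (58 higher, 13 lower) and 2 to 61 with an array left out. The 11 calls of the difference from naïve pups became 19 with median centring, 21 without dim probe sets, 1 with treat, 21 with a trended and robust prior, 42 with array weights, 21 with 1 probe set per gene and 1 to 30 with an array left out. The 404 calls of the difference between sets became 34 with treat, 2454 with array weights (1136 higher, 1318 lower) and 204 to 989 with an array left out. The other alternatives stayed within 1.5 times of these counts. Of 2036 comparisons of a named gene with its value under an alternative, 1839 kept direction and side of the threshold. A call was lost in 129 and gained in 65, and 3 changed sign, all 3 of uncalled genes. Most named genes had no call to lose. All 129 losses were of the 14 called genes, from 1 of 26 alternatives for Chil3 to 14 of 26 for Ackr1. With an array left out Cxcr5 ranged from -0.0114 (without AF85) to 0.120, Cxcr4 from -0.0819 to 0.00854 (without AF88) and Il6 from -0.191 to 0.00135 (without AF90). Chil3 kept its call in 25 of 26 alternatives, Lcn2, Ltf and the x_at probe set of Trib3 in 19 of 26, and none of the 14 genes in all. The other Trib3 probe set kept its call with treat and with any array left out. The cause of these changes was not tested. Of the 16 probe sets, 16 were positive in Set 2 and 13 without AF123, which was left out once the data had been seen. No paired analysis was possible because the groups share no replicate numbers. Trim15 and Nectin3 lay near the lower quartile of the arrays, where signal limits what a fold shows.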
